A study of Neurospora crassa with 4 samples.

Results

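This report follows 9 genes of *Neurospora crassa* respiration that lie outside complex I, the NADH:ubiquinone oxidoreductase of the inner mitochondrial membrane. They were taken by locus tag from the 7793 genes with deposited counts, and all 9 were present. No filter on values was used, but the 9 genes were chosen with earlier results of these data known. They are *aod-1* (alternative oxidase), *nde-1*, *nde-2* and *ndi-1* (alternative NAD(P)H dehydrogenases), *cyc-1* (cytochrome c), *atp-1* and *atp-2* (the alpha and beta subunits of ATP synthase), *aac* (the ADP/ATP carrier) and *por* (porin, the channel of the mitochondrial outer membrane). The list of genes that was used gave the names of NCU00153 and NCU08980 the other way round from RefSeq. The RefSeq names are used here, so *ndi-1* is NCU00153 and *nde-2* is NCU08980. They were set beside the 29 genes with a *nuo* symbol, which encode subunits of complex I.

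In most eukaryotes electrons from NADH enter the respiratory chain at complex I, pass through ubiquinone, complex III and cytochrome c to complex IV, and the proton gradient that builds up drives ATP synthase. Fungi and plants also have enzymes that bypass the proton pumps. Alternative NAD(P)H dehydrogenases pass electrons to ubiquinone in parallel with complex I, and alternative oxidase passes them from ubiquinol straight to oxygen.

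Expression was measured by 3′ End Sequencing of total RNA from 2 ΔCFIm and 2 control cultures, which the submitters describe as biological duplicates. The ΔCFIm strain (2029) lacks *cpsf5* (NCU09014) and *cpsf6* (NCU02152), each replaced by a hygromycin resistance marker. These genes encode cleavage factor Im, which takes part in the choice of poly(A) sites, and the study examined this mutant for its circadian clock. The control strain (1785-1) is MAT A and keeps both genes. Both strains carry the reporter *csr-1*::cbox-luciferase::barR, and each genotype is a single strain. All 4 cultures grew for 72 hours at 25°C in constant light on cellophane over 1.5% agar with 0.25% glucose and 0.17% arginine.

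Between 5572762 and 6053869 reads were counted on genes in each library. Values are normalized counts, which are read counts scaled by the authors to the same total in every library, so that 1 read is worth 0.967 to 1.05 normalized counts. The deleted gene *cpsf5* had 3 and 0 reads in the ΔCFIm libraries, against 204 and 199 in controls, at least 68.2-fold lower with the ΔCFIm libraries set to the floor of 3 reads each. The other deleted gene, *cpsf6*, kept 26 reads in each ΔCFIm library, against 134 and 165 reads in controls. The mating type gene *matA-1* had 0 reads in both ΔCFIm libraries, against 145 and 166 in controls, so the strains also differ at the mating type locus, and this cannot be told apart from the deletions. Of 6 genes of asexual development, which mark aerial hyphae and conidia (*eas*, *con-6*, *con-8*, *con-10*, *fl* and *ccg-1*), 0 passed the limma test described below, 1 had an unadjusted p under 0.05, and edgeR and DESeq2 also called 0. Of all tested genes limma called 4.62% higher and 3.38% lower in ΔCFIm, edgeR 6.13% and 4.32%, and DESeq2 4.35% and 2.91%. At an unadjusted p under 0.05 the shares were 11.8% and 10.7%. With only 6 genes, counts this low do not show that development was alike. None of the 6 was at 0 in any library. Together they took 13.1% and 13.5% of the counts in ΔCFIm, against 13.4% and 13.7% in controls, a sum carried by *eas*. The gene with the unadjusted p under 0.05 was *con-8*, which was lower in both ΔCFIm libraries (log2 fold change -0.64, adjusted p = 0.176 from limma).

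Among the 9 genes, only *cyc-1* passed the limma test. It was higher in ΔCFIm by 0.68 on the log2 scale. The *nde-2* gene was higher by a similar amount, 0.61, and just missed the threshold. The other 7 genes had log2 fold changes between -0.39 and 0.19, with intervals that all included 0. In the limma test across all 6949 genes that averaged 10 or more normalized counts over the 4 libraries, 4.62% of genes were higher and 3.38% lower in ΔCFIm at a Benjamini-Hochberg adjusted p of 0.05. All 9 genes met the filter on low values. Against that background, 1 of the 9 rose and 0 fell. At an unadjusted p under 0.05 there were 2 higher and 0 lower, where 11.8% of all tested genes were higher and 10.7% lower. By edgeR on the recovered reads 2 rose (*cyc-1* and *nde-2*) and 0 fell, against 6.13% and 4.32% of all tested genes. By DESeq2 1 rose and 0 fell, against 4.35% and 2.91%. Both ΔCFIm libraries were above both controls for 3 of the 9 genes (*cyc-1*, *nde-2* and *aod-1*), where 25.9% of all tested genes did the same. Both were below both controls for 2 genes (*atp-1* and *por*), where the share of all tested genes was 26.5%. The measurements are made on RNA from whole cultures, in which fewer cells of a kind and less RNA per cell cannot be told apart.

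**Figure D1:**
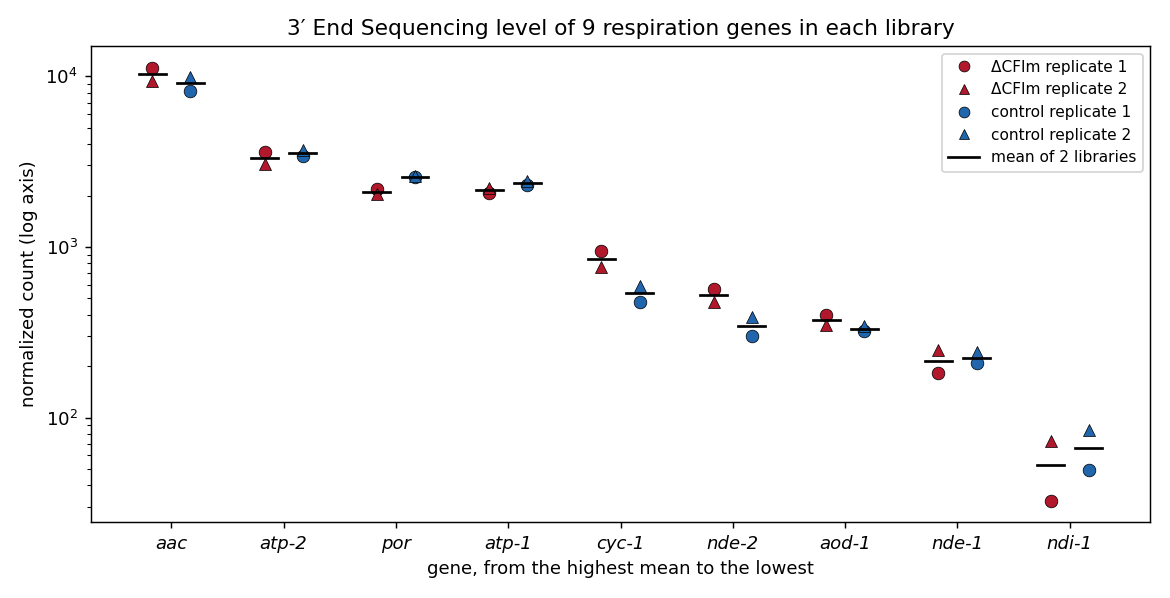
Normalized count (log axis) of each of the 9 genes in the 2 ΔCFIm libraries (red, left) and the 2 control libraries (blue, right), with the mean of each pair as a bar. The genes run from *aac* (means of 10337 and 9071 normalized counts in ΔCFIm and control) to *ndi-1* (52.8 and 66.7), and *cyc-1* and *nde-2* are the genes whose pairs stand clearly apart with ΔCFIm on top.

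The alternative oxidase gene *aod-1* (NCU07953, linkage group IV, 1234976 to 1237012, NC12 assembly) is known to be induced when the cytochrome chain is blocked. In ΔCFIm replicates 1 and 2 it had 400.2 and 349.5 normalized counts, against 320.3 and 344 in control replicates 1 and 2. The ΔCFIm libraries were both higher, but ΔCFIm replicate 2 exceeded control replicate 2 by few counts. The log2 fold change in limma was 0.17 (SE 0.18, adjusted p = 0.625). The transcription factor genes *aod-2* (NCU03352) and *aod-5* (NCU03938), which are needed for the induction of *aod-1*, overlapped between genotypes. The *aod-2* gene had 167 and 113 normalized counts in ΔCFIm, against 117 and 119 in controls. The *aod-5* gene had 124 and 123 normalized counts in ΔCFIm, against 102 and 131 in controls. Neither passed the limma test, with log2 fold changes of 0.22 (adjusted p = 0.625) and 0.09 (adjusted p = 0.841). A further gene with an alternative oxidase symbol, *aod-3*, had between 2.96 and 8.99 normalized counts in the 4 libraries and was too low to be tested.

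None of the 3 alternative NAD(P)H dehydrogenase genes passed the limma test. The *nde-2* gene (NCU08980, linkage group III, 4123902 to 4126697), which encodes an external enzyme that faces the intermembrane space, had 570.1 and 476 normalized counts in ΔCFIm, against 302 and 386 in controls. Both ΔCFIm libraries were above both controls, with means of 523 ± 66.3 and 344 ± 58.9 (SD, n = 2). The log2 fold change in limma was 0.61 (SE 0.19, 95% interval 0.20 to 1.02, adjusted p = 0.0695). Over 14 alternative analyses its log2 fold change stayed between 0.43 and 0.78, the adjusted p lay between 0.0117 and 0.503, and 3 of them passed it, namely edgeR (adjusted p = 0.0398), the limma model with the replicate number as a block (adjusted p = 0.0348, a fit in which 7.28% of all tested genes rose and 5.53% fell) and the fit without ΔCFIm replicate 2 (adjusted p = 0.0117).

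The *nde-1* gene (NCU05225, linkage group IV, 5690701 to 5693774) encodes an external, calcium-dependent NADPH dehydrogenase. It had 183 and 249 normalized counts in ΔCFIm, against 208 and 241 in controls. The 2 controls lay between the 2 ΔCFIm libraries, and the log2 fold change in limma was -0.07 (SE 0.21, adjusted p = 0.882). Its annotation shares 10 bp with the neighbouring gene NCU05226. Of the alternative dehydrogenases, *ndi-1* (NCU00153, linkage group III, 2804504 to 2807804), the internal enzyme that oxidizes NADH of the matrix, was the least abundant. It had 32.6 and 72.9 normalized counts in ΔCFIm, from 33 and 73 reads, against 49.4 and 84.1 in controls, from 47 and 87 reads. The spread within each genotype was larger than the difference between them, and the log2 fold change of -0.39 had the widest interval of the 9 genes (-1.19 to 0.40, adjusted p = 0.578 from limma). Another external enzyme, *nde-3*, did not pass the test, with 93.9 and 75.9 normalized counts in ΔCFIm, against 80.9 and 86.0 in controls (log2 fold change 0.02, 95% interval -0.48 to 0.51, adjusted p = 0.976). Summed over *nde-1*, *nde-2* and *ndi-1*, the ΔCFIm libraries had 786 and 798 normalized counts, against 559.8 and 711 in controls.

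Cytochrome c, the product of *cyc-1* (NCU01808, linkage group II, 2356042 to 2357819), carries electrons from complex III to complex IV. The gene had 943 and 767 normalized counts in ΔCFIm, against 476 and 593 in controls. Both ΔCFIm libraries were above both controls, with means of 855 ± 124 and 534 ± 82.6 (SD, n = 2), a 1.60-fold difference. The log2 fold change in limma was 0.68 (SE 0.19, 95% interval 0.28 to 1.08, adjusted p = 0.0409). The call was close to the threshold. Over 14 alternatives the log2 fold change lay between 0.52 and 0.84 and the adjusted p between 0.00310 and 0.360, and 9 of the 14 passed. The call was lost without control replicate 1 (adjusted p = 0.360), without control replicate 2 (0.0537), without ΔCFIm replicate 1 (0.0754), without a mean-variance trend in limma (0.110) and with no filter on low values (0.222).

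The 5 tested genes whose 4 values lay nearest to those of *cyc-1*, by Euclidean distance of log2 values centred on each gene's mean among 6113 other genes that averaged 50 or more normalized counts, included *nde-2* in the second place. The distances were 0.05 for NCU09652, 0.08 for *nde-2*, 0.10 for NCU07874, 0.10 for *cys-18* and 0.11 for *lys-7*. The genes were picked for this likeness, so their difference between genotypes is no separate result.

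Neither ATP synthase subunit passed the test. The *atp-1* gene (NCU02514) lies on linkage group I, from 2579582 to 2582985. It had 2079.9 and 2217 normalized counts in ΔCFIm, against 2300.02 and 2426 in controls. Its ΔCFIm libraries were both slightly lower, and limma gave a log2 fold change of -0.14 with SE 0.17 (adjusted p = 0.684). The *atp-2* gene (NCU05430, linkage group II, 1611546 to 1614821) had 3619 and 3048 normalized counts in ΔCFIm, against 3424 and 3713 in controls. The genotypes overlapped, and the log2 fold change in limma was -0.10 (SE 0.18, adjusted p = 0.785). The 95% intervals were -0.50 to 0.22 for *atp-1* and -0.48 to 0.28 for *atp-2*, and neither interval held a change of the size seen for *cyc-1*.

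ATP made in the matrix leaves through the ADP/ATP carrier of the inner membrane and then porin in the outer membrane. The carrier gene *aac* (NCU09477, linkage group II, 4405532 to 4407556) was the most abundant of the 9 genes, with 11236 and 9437 normalized counts in ΔCFIm, against 8242 and 9899 in controls. The genotypes overlapped, and the log2 fold change in limma was 0.19 (SE 0.19, adjusted p = 0.623). The *por* gene (NCU04304, linkage group V, 5562346 to 5564796) had 2179.7 and 2031 normalized counts in ΔCFIm, against 2584 and 2585 in controls. Its control libraries were nearly equal and both ΔCFIm libraries were lower, and limma gave a log2 fold change of -0.30 with SE 0.17 (unadjusted p = 0.0973, adjusted p = 0.322). This difference did not pass the threshold in any of the 14 alternatives, where it lay between -0.35 and -0.25.

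In 3′ End Sequencing a transcript gives reads at its end whatever its length, so the counts of different genes were ranked without division by length. The study states that some annotated 3′ UTRs stop short of the poly(A) signal, and counts cover annotated genes only. The ranks therefore depend on the annotation. Whether poly(A) sites of the 9 genes lay outside it, or moved across its edge in ΔCFIm, was not examined. The order of mean levels over the 4 libraries was *aac*, *atp-2*, *por*, *atp-1*, *cyc-1*, *nde-2*, *aod-1*, *nde-1* and *ndi-1*. Neighbours in this order had separate libraries within each genotype, apart from *por* and *atp-1* in ΔCFIm and *nde-2* and *aod-1* in controls, which overlapped. In ΔCFIm *nde-2* stood above *aod-1* by 1.40-fold, against 1.04-fold in controls, and *atp-1* stood above *cyc-1* by 2.51-fold in ΔCFIm, against 4.42-fold in controls. Together the 9 genes took 0.363% and 0.319% of the counts in ΔCFIm, against 0.306% and 0.346% in controls, and *aac* alone took 0.192% and 0.161%, against 0.141% and 0.169%.

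The 9 genes were then set beside complex I, by description and without a test of the difference. Of the 29 complex I genes, 25 had a positive log2 fold change, against 4 of the 9 genes and 48.9% of all tested genes. The median log2 fold change was 0.38 for complex I, -0.07 for the 9 genes and -0.01 for all tested genes. In complex I 4 genes rose and 0 fell in the limma test, against 4.62% and 3.38% of all tested genes. At an unadjusted p under 0.05 there were 11 higher and 0 lower, against 11.8% and 10.7%. By edgeR 8 rose and by DESeq2 5, against 6.13% and 4.35% of all tested genes, and neither called any lower. Those that rose in the limma test were *nuo24* (log2 fold change 0.90, adjusted p = 0.0153), *nuo19.3* (0.80, adjusted p = 0.0154), *nuo21* (0.73, adjusted p = 0.0368) and *nuo11.5* (0.67, adjusted p = 0.0260). The lowest gene was *nuo14.8*, with a log2 fold change of -0.39 (adjusted p = 0.225). The count of complex I genes rested on single libraries, with 0 called without control replicate 2 (7 at an unadjusted p under 0.05) and 18 without ΔCFIm replicate 2. With the replicate number as a block it was 9.

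**Figure D2:**
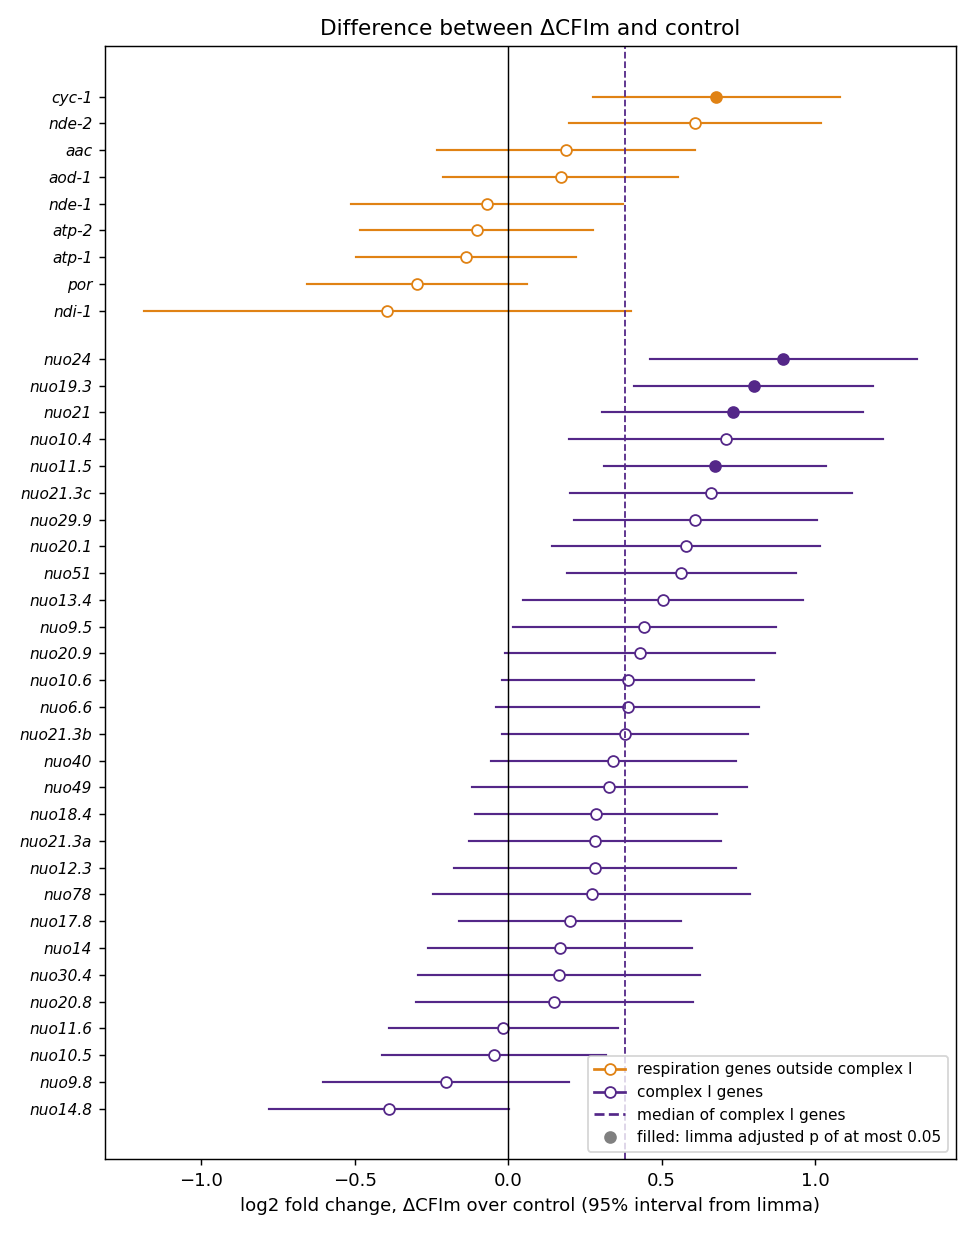
Log2 fold change of ΔCFIm over control with its 95% interval from limma, for the 9 genes outside complex I (orange, above) and the 29 complex I genes (purple, below). Filled points passed the adjusted p threshold of 0.05 (*cyc-1*, *nuo24*, *nuo19.3*, *nuo21* and *nuo11.5*). The dashed line is the complex I median of 0.38, with *cyc-1* and *nde-2* to its right and the other 7 genes to its left.

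Placed among the complex I genes by log2 fold change, *cyc-1* had 4 of the 29 above it and *nde-2* had 7 above it. The *aod-1* and *aac* genes each had 22 above them. The *nde-1*, *atp-1* and *atp-2* genes each had 27 of the 29 above them, *por* had 28 and *ndi-1* had all 29.

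The same question was asked within each library, as the log2 level of a gene minus the log2 level of the median complex I gene. The *cyc-1* gene was at 0.31 and 0.59 in ΔCFIm, against -0.15 and 0.26 in controls, so it was higher relative to complex I in both ΔCFIm libraries. This rests on ΔCFIm replicate 1 and control replicate 2. With the sum of complex I in place of the median, these 2 were nearly equal for *cyc-1*, at -4.6685 and -4.6715. The *por* gene was at 1.52 and 1.99 in ΔCFIm, against 2.29 and 2.39 in controls, lower relative to complex I in both. The *atp-1* gene was at 1.45 and 2.12 in ΔCFIm, against 2.12 and 2.30 in controls, and *atp-2* was at 2.25 and 2.58 in ΔCFIm, against 2.69 and 2.91 in controls, also lower in both. For *atp-1* this rests on ΔCFIm replicate 2 and control replicate 1, which were nearly equal at 2.117 and 2.120. The differences of the means, ΔCFIm minus control, were 0.39 for *cyc-1*, -0.58 for *por*, -0.42 for *atp-1* and -0.39 for *atp-2*. Each gave a two-sided exact permutation p of 0.33, the smallest that 2 libraries against 2 can give, so none could pass. Of the 9 genes, 1 thus stood above and 3 below in both ΔCFIm libraries. Among all tested genes 8.38% stood above and 41.2% below on this scale. For *aod-1*, *nde-1*, *nde-2*, *ndi-1* and *aac* the genotypes overlapped on this scale, with differences of -0.12, -0.36, 0.32, -0.68 and -0.10 and an exact permutation p of 0.667 each. Taking the mean or the sum of the complex I genes in place of the median left each of the 9 differences with the same sign.

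**Figure D3:**
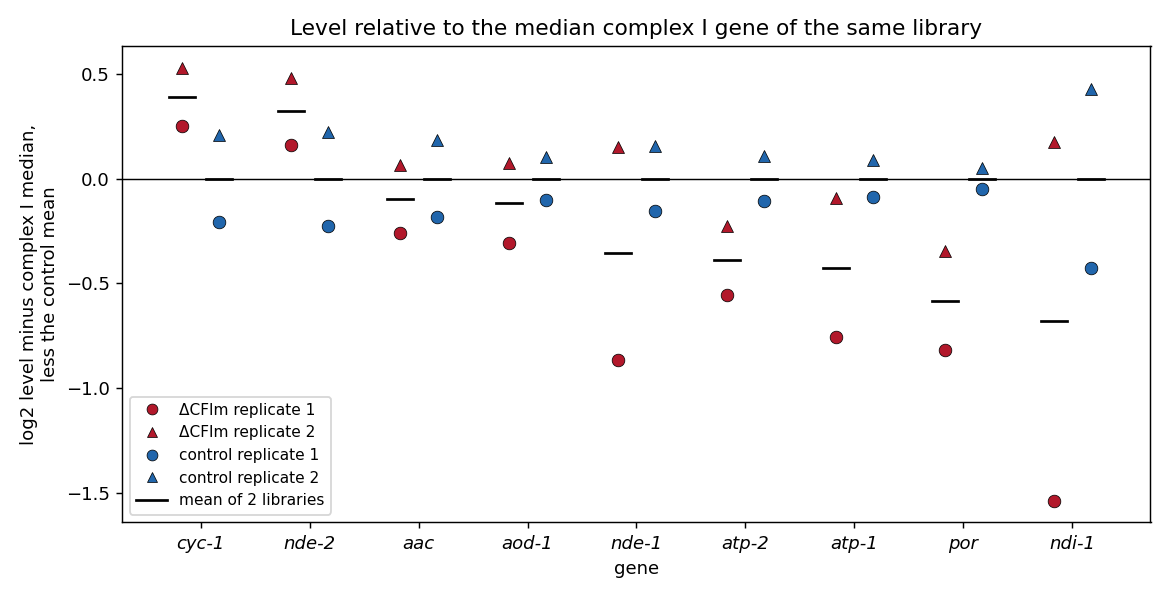
Log2 level of each of the 9 genes minus that of the median complex I gene of the same library, with the control mean of each gene set to 0. ΔCFIm libraries (red) stand left of controls (blue) and bars are means of 2 libraries. Both ΔCFIm libraries lie above both controls for *cyc-1*, and below both for *atp-2*, *atp-1* and *por*, and the spread between the ΔCFIm libraries is widest for *ndi-1*.

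The 2 ΔCFIm libraries did not give the same picture of complex I. The median complex I gene had 761 normalized counts in ΔCFIm replicate 1 and 510.3 in replicate 2, against 528 and 493 in controls. Set against the control mean, the median of the complex I genes was 0.62 on the log2 scale in ΔCFIm replicate 1 and 0.18 in replicate 2. For *cyc-1* the same differences were 0.83 and 0.53, and for *nde-2* 0.74 and 0.48, so both genes were above the control mean in each ΔCFIm library. For *ndi-1* they were -0.96 and 0.17, and for *nde-1* -0.29 and 0.15, of opposite sign in the 2 ΔCFIm libraries. The *atp-2* gene had 0.02 and -0.23. The *por* gene (-0.25 and -0.35) and the *atp-1* gene (-0.18 and -0.09) were below the control mean in each, and *aac* (0.31 and 0.06) and *aod-1* (0.27 and 0.07) above it.

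The ratio of the 2 ΔCFIm libraries was taken gene by gene, with an exact 95% interval that covers counting error only. There is 1 library on each side, so this is a description without a test. Over all tested genes the median log2 ratio of ΔCFIm replicate 1 to replicate 2 was 0.10, with 62.2% of genes higher in replicate 1, and the middle 90% of genes lay between -0.51 and 0.72. All 29 complex I genes were higher in ΔCFIm replicate 1, with a median log2 ratio of 0.39 and a range of 0.02 to 0.87. For 23 of them the counting interval excluded 0. Of the 9 genes 6 were higher in ΔCFIm replicate 1, with a median of 0.19. The interval excluded 0 for 5 of the 9 on the higher side and 3 on the lower side, against 29.3% and 15.2% of all tested genes. A counting interval narrows as reads increase, and these shares were not matched for read depth. With 2105 and 2220 reads in ΔCFIm, *atp-1* excluded 0 at a log2 ratio of -0.09. With 405 and 350 reads, *aod-1* included 0 at 0.20. The median absolute log2 ratio was similar, 0.25 for the 9 genes and 0.24 for all tested genes.

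The widest ratio was that of *ndi-1*, at -1.16 (interval -1.80 to -0.55), and 1.32% of tested genes had an absolute ratio at least as large. The *nde-1* gene was at -0.44 (-0.73 to -0.16). The *cyc-1*, *nde-2*, *aac*, *atp-2* and *por* genes were higher in ΔCFIm replicate 1, with log2 ratios of 0.30, 0.26, 0.25, 0.25 and 0.10 and intervals that excluded 0. The median of all tested genes was itself at 0.10. Against that median, *por* did not stand apart and the interval of *nde-2* (0.08 to 0.44) included it. The intervals of *cyc-1*, *aac* and *atp-2* lay above it. The *atp-1* gene was lower in replicate 1, at -0.09 (-0.18 to -0.01), and for *aod-1*, at 0.20 (-0.01 to 0.41), the interval included 0. Apart from that of *ndi-1*, these ratios lay inside the middle 90% of tested genes.

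The same ratio in the controls gave another order. All 9 genes were lower in control replicate 1 than in control replicate 2, from -0.77 for *ndi-1* to nearly 0 for *por*. The interval excluded 0 for 5 of them on the lower side (*nde-2*, *ndi-1*, *cyc-1*, *atp-2* and *aac*) and for 0 on the higher side, against 15.3% and 16.7% of all tested genes. These shares were again not matched for read depth. The median absolute log2 ratio in controls was 0.21 for the 9 genes and 0.18 for all tested genes. Over all tested genes 50.4% were higher in control replicate 1 and the median was 0.00. In complex I 23 of 29 were higher in control replicate 1, with a median log2 ratio of 0.16. The counting interval excluded 0 for 12 of the 29 on the higher side and for 0 on the lower side. For all tested genes these shares were 16.7% and 15.3%. So *ndi-1*, *nde-1* and *atp-1* were lower in replicate 1 of both genotypes, while *cyc-1*, *nde-2*, *aac* and *atp-2* were higher in replicate 1 of ΔCFIm and lower in replicate 1 of the control. The development genes *con-10* (52848 and 103957 normalized counts) and *con-8* (34801 and 57359) also differed between ΔCFIm replicates 1 and 2, against 89366 and 69319 for *con-10* and 64873 and 75140 for *con-8* in controls. These 2 genes had the widest gaps of the 6 development genes. The *con-6*, *fl* and *ccg-1* genes were lower in ΔCFIm replicate 1 by smaller factors. The most abundant, *eas*, went the other way, with 611475 and 545275 normalized counts. The part of the development genes in the differences between libraries was not tested.

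**Figure D4:**
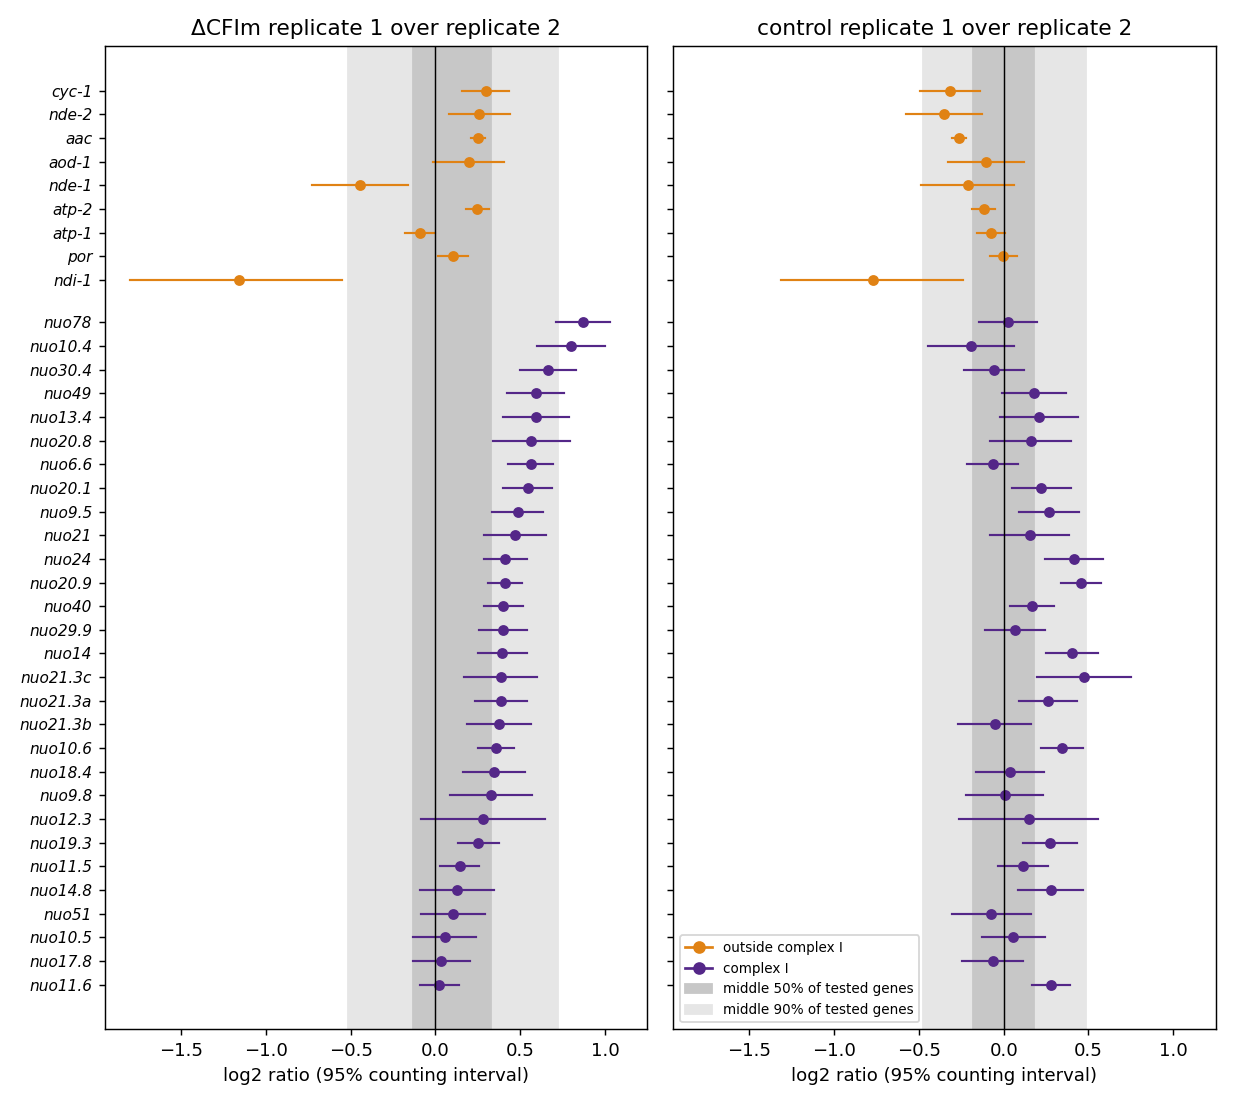
Log2 ratio of replicate 1 over replicate 2 in ΔCFIm (left) and control (right), with 95% counting intervals, for the 9 genes (orange) and the 29 complex I genes (purple). Grey bands hold the middle 50% and 90% of all tested genes. All purple points lie right of 0 in ΔCFIm and 23 of 29 do in the control, while the orange points lie on both sides in ΔCFIm and at or left of 0 in the control.

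Other parts of the respiratory chain were counted in the same way. These lists are partial, because descriptions of gene products were at hand only for genes that the study lists for having more than 1 poly(A) site. The lists hold 3 such genes of 4 for complex II, 6 of 7 for complex III, 1 of 3 for complex IV and 6 of 6 for the other ATP synthase subunits. The study found such sites with the libraries described here, ΔCFIm among them. Whether a gene entered a list may therefore depend on its level in ΔCFIm. The shares of all tested genes given beside these lists are not a matched background, and the counts and medians are description only. In complex II, succinate dehydrogenase, 2 of 4 genes rose and 0 fell, with a median log2 fold change of 0.74. Of all tested genes 4.62% rose and 3.38% fell in the limma test. The iron-sulfur subunit gene *tca-10* had 1819 and 1384 normalized counts in ΔCFIm, against 699 and 870.1 in controls (log2 fold change 1.02, adjusted p = 0.00523 from limma). The membrane subunit gene *tca-11* had 407 and 292 in ΔCFIm, against 197 and 157 in controls (0.97, adjusted p = 0.0137). Both genes were higher in every ΔCFIm library than in any control, as were 25.9% of all tested genes.

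In complex III, which reduces cytochrome c, the median log2 fold change was 0.27. There 1 of 7 genes rose and 0 fell in limma, against 4.62% and 3.38% of all tested genes. The gene that rose was NCU05989, with 1283 and 1100.5 normalized counts in ΔCFIm, against 559 and 584 in controls (log2 fold change 1.06, adjusted p = 0.00205 from limma). In complex IV, which takes electrons from cytochrome c, 0 of 3 genes passed, also by edgeR and DESeq2, with 0 higher and 1 lower at an unadjusted p under 0.05 and a median of -0.23. Of 6 other ATP synthase genes 1 rose and 0 fell, with a median of 0.05. For complex II, complex III and these ATP synthase genes edgeR and DESeq2 gave the same counts as limma. Of all tested genes edgeR called 6.13% higher and 4.32% lower, and DESeq2 4.35% and 2.91%. At an unadjusted p under 0.05 limma had 4 higher and 0 lower in complex II and 3 higher and 0 lower in complex III. Among the other ATP synthase genes it had 1 higher and 1 lower. Of all tested genes 11.8% were higher and 10.7% lower at this threshold. The ATP synthase gene that rose was NCU00644, with 1065 and 852 normalized counts in ΔCFIm, against 453 and 458 in controls (1.06, adjusted p = 0.00255 from limma). Of 14 citric acid cycle genes 0 passed the limma test (3 higher and 1 lower at an unadjusted p under 0.05), edgeR called 0 and DESeq2 called 1, and the median was 0.05.

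**Figure D5:**
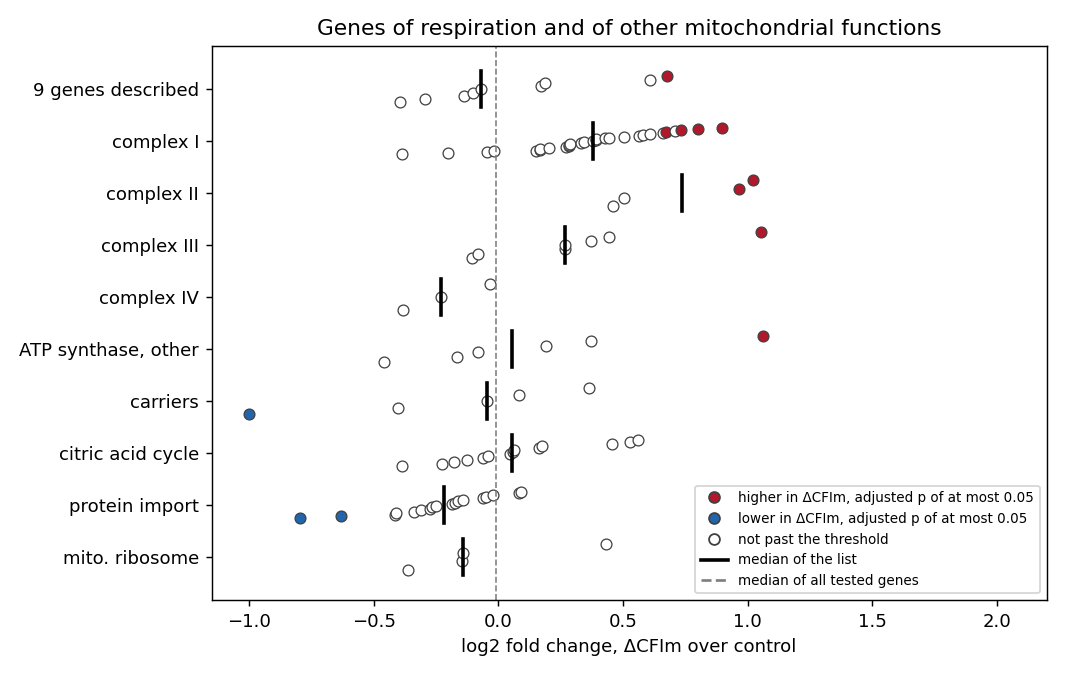
Log2 fold change of ΔCFIm over control for each tested gene of the 9 and of the lists of mitochondrial genes (1 point per gene, offset for visibility). Red and blue points passed the adjusted p threshold of 0.05 in limma, black bars are list medians and the dashed line is the median of all tested genes (-0.01). The medians of complex II (0.74), complex I (0.38) and complex III (0.27) lie to the right, those of the 9 genes (-0.07) and the other ATP synthase subunits (0.05) near the dashed line, and that of complex IV (-0.23) to the left.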

How the data were processed

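Libraries were made with the Lexogen QuantSeq 3′ REV kit and sequenced as 75 bp stranded single-end reads. According to the study's methods and processing notes, reads were checked with FastQC, aligned with STAR to the NC12 genome and counted per gene with HTSeq. Tool versions and the strand setting of counting are not given in the sources used here. The deposited signal is a count per gene that the authors normalized by library size, with replicates kept apart. Division by what 1 read is worth in a library returned whole reads for 100% of values (tolerance 1e-06).

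ΔCFIm and control were compared with limma 3.58.1 in R 4.3.3 (lmFit, eBayes with a trend, two-sided) on log2(normalized count + 1), over the 6949 genes that averaged 10 or more, with Benjamini-Hochberg adjustment and a threshold of 0.05. Fold changes are on this scale, which understates changes of low genes. The alternatives were pseudocounts of 0.1 and 5, no filter, a mean of at least 50, median-of-ratios and quantile scaling, the replicate block, no trend, edgeR 4.0.16 (quasi-likelihood) and DESeq2 1.42.0 on whole reads, the omission of single libraries and, added after the data were seen, an adjusted p threshold of 0.1. With a library left out, the lone library is assumed to vary like the other genotype.

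The genes and lists were chosen with earlier results of these data known. Text names the 9 genes, the deleted genes, the regulators of *aod-1*, the genes past the threshold in each list (at most 5 in each direction), the extremes of complex I and the 5 genes nearest to *cyc-1*. The *matA-1*, *aod-3*, *nde-3*, *con-8* and *con-10* genes were named after their values were seen. RefSeq (NC12) gave symbols and coordinates for 7792 of 7793 genes but no products, so the lists could not be built fully. The *tca-12*, *cyt-1*, *cya-4* and *cox-4* genes were added by symbol, and the locus tags first written for *aod-2* and *aod-5* were replaced by those in RefSeq.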

Additional observations from a re-analysis of the deposited data

How the results depend on the processing

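The design has 2 libraries per genotype, and 1 library decided several calls. Genes past the limma threshold numbered 556 (1563 at an unadjusted p under 0.05), 30 with no filter on low values and 333 to 1132 with a library left out (333 without control replicate 2, 1132 without ΔCFIm replicate 2). Of the 9 genes, 1 passed, against 0 with no filter or without a trend in limma (3 and 2 at an unadjusted p under 0.05), 2 by edgeR, 2 at an adjusted p threshold of 0.1 (chosen after seeing the data) and 0 to 2 with a library left out. Complex I genes numbered 4, against 0 with no filter or without a trend (6 and 9 at an unadjusted p under 0.05), 8 by edgeR, 8 at a threshold of 0.1 and 0 to 18 with a library left out, and their median log2 fold change stayed between 0.18 and 0.62. With a library left out, the direction reversed for *nde-1* (-0.29 to 0.15), *ndi-1* (-0.96 to 0.17) and *atp-2* (-0.23 to 0.0215), and for the other 6 genes it held in all 14 alternatives. The cause of these shifts was not tested. With the replicate block 890 genes passed (506 higher and 384 lower), 2 of the 9 genes and 9 of complex I. The labels do not say what a shared replicate number stands for, and deviations of same-numbered libraries correlated weakly (Pearson's r = 0.137 across genes, which are not independent). The depth limits *ndi-1* most, with 33 to 87 reads per library.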

Other observations

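Genes of mitochondrial protein import, which brings proteins made in the cytosol such as those encoded by *atp-1* and *atp-2* into the organelle, were counted in the same way. Of 18 genes with a *tim* or *tom* symbol 2 fell and 0 rose in the limma test, where 3.38% of all tested genes fell and 4.62% rose (4 lower and 0 higher at an unadjusted p under 0.05), where edgeR called 2 lower and DESeq2 1. The median log2 fold change was -0.22, against -0.01 for all tested genes, and 16 of the 18 values were below 0, against 3549 of 6949. The *tim50* gene, for a receptor of the inner membrane translocase, had 480.2 and 592 normalized counts in ΔCFIm, against 983 and 873 in controls (log2 fold change -0.80, SE 0.18, adjusted p = 0.0154). The *tom5* gene, for a small subunit of the outer membrane translocase, had 411 and 476 normalized counts in ΔCFIm, against 659.6 and 714 in controls (-0.63, SE 0.17, adjusted p = 0.0406). For both genes every ΔCFIm library was below every control, as for 26.5% of all tested genes. In 14 of the 18 genes ΔCFIm replicate 1 was the lower of the ΔCFIm libraries, while all 29 complex I genes were higher in replicate 1.

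Of 5 genes described as mitochondrial carriers other than *aac*, 1 fell and 0 rose in limma, edgeR and DESeq2 (2 lower and 0 higher at an unadjusted p under 0.05). Of all tested genes 3.38% fell by limma, 4.32% by edgeR and 2.91% by DESeq2. The NCU07478 gene had 172 and 283 normalized counts in ΔCFIm, against 435 and 449 in controls (limma log2 fold change -0.999, SE 0.22, adjusted p = 0.0154). Of 4 genes of the mitochondrial ribosome 0 passed in limma, edgeR or DESeq2, with 1 higher and 0 lower at an unadjusted p under 0.05. All 5 carrier genes and all 4 ribosome genes come from the study's lists of genes with more than 1 poly(A) site, which drew on these same libraries. Shares of all tested genes are not a matched background for them.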
